A study of Homo sapiens with 6 samples.

Results

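The ErbB family is a group of receptor tyrosine kinases at the cell surface, and the members described here are its receptors (EGFR, ERBB2, ERBB3 and ERBB4) together with 6 genes for EGF-family ligands (AREG, EREG, HBEGF, TGFA, BTC and NRG1). Members are the rows of a table of 21494 genes that carry one of these 10 gene symbols, a rule that uses no measured value, although the family was picked with earlier results of these data known. Of the 10, 9 have a row, namely 3 of 4 receptors and 6 of 6 ligands, and all 9 passed the filter on low counts that left 16756 genes for testing. ERBB4 was not analysed here.

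RNA-seq was done on 6 samples, 3 that carry a control shRNA (Control sh, genotype WT in the labels) and 3 that carry an shRNA against VprBP, the protein made by DCAF1 (VprBP sh, genotype DCAF1 Knockdown). According to the study, the VprBP shRNA was delivered by a lentiviral pLKO.1 vector and infected cells were selected with puromycin, while the vector and selection of the control shRNA are not given in the sources used here. A single shRNA sequence against VprBP is given, so an effect of that sequence and an effect of lower VprBP cannot be told apart. The cell line is labelled G361, a human melanoma line, yet the source field of every sample reads LD611, and the labels name a SMARTER library kit, whereas the methods of the study describe a stranded KAPA kit. Nothing says that the 3 samples of a group came from separate cultures, so p-values measure only the spread between these samples, which may be technical.

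Total estimated counts ran from 20714418 to 24828293 in Control sh, and from 18195949 to 26883948 in VprBP sh, and mitochondrial genes took 1.96% to 1.99% and 4.10% to 4.48% of them. DCAF1 gave 688, 893 and 884 counts in Control sh replicates 1, 2 and 3, against 681, 488 and 628 in VprBP sh, a log2 fold change of -0.58 (SE 0.17, adjusted p = 0.0125 in edgeR's quasi-likelihood test) that stayed short of 2-fold. The adjusted p for DCAF1 in edgeR was 0.0851 with scaling by library size alone and 0.0839 with replicates 2 and 3 of each group summed. RBM15B overlaps exons of DCAF1 on the opposite strand, so reads of the pair may not be told apart. Of 10 melanocyte-lineage markers, 6 have a row and 4 were tested, of which 1 (RAB38) fell and 0 rose, and their summed normalized counts lay between 1160 and 1373 in Control sh, against 585.8 to 631.4 in VprBP sh. RAB38 alone sets that direction, as the sum of the other 5 lay between 232.4 and 284.6 in Control sh, against 306.5 to 391.3 in VprBP sh. Of the pigment genes, MLANA had at most 5 counts and TYRP1 at most 4 in any sample, while PMEL had 28 to 46, GPR143 32 to 107 and MITF 154 to 312. TYR, DCT, SOX10 and S100B were not analysed here. Of 13 urothelial and other epithelial markers, 11 have a row and 10 were tested, of which 2 (GATA3 and PPARG) rose and 3 (KRT5, UPK1B and UPK2) fell, and their sum lay between 119834 and 131544 in Control sh, against 56414 to 58188 in VprBP sh. KRT5 carried most of that difference, and without it the sums were 62196 to 64539 and 51414 to 55487. In level, KRT7 had 15710 to 36124 counts over the 6 samples, CDH1 5011 to 10449 and EPCAM 3901 to 7657. UPK1A had at most 5 counts in any sample, and KRT20 and UPK3A were not analysed here. Which cell line the samples hold was not tested. Of 8 fibroblast markers, 5 have a row and 4 were tested, of which 0 rose and 3 fell, and their sum was 760.2 to 800.9 and 454.3 to 595.6. COL1A1, which was not called, made up most of that sum, at means of 684 and 542 normalized counts. The 3 that fell (COL1A2, LUM and PDGFRB) had at most 40 counts in any sample. The part of these shifts in the results on ErbB genes was not tested. Between the groups, 405 genes with a mean normalized count of 100 or more in Control sh had 3 counts or fewer in each VprBP sh library, and 158 genes did the opposite, so that a response of 1 cell population and a difference between the cells under each label cannot be told apart.

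As background, ErbB receptors are activated when a ligand brings receptors together in pairs, after which the kinase domains phosphorylate tails that recruit adaptors and switch on the RAS-ERK and PI3K-AKT cascades. EGFR binds AREG, TGFA, EREG, HBEGF and BTC, the last 3 of which also bind ERBB4, and NRG1 binds ERBB3 and ERBB4. ERBB2 has no known ligand of its own and serves as the favoured partner of the others, while ERBB3 has a weak kinase and is a strong recruiter of PI3-kinase. The ligands are made as membrane-bound precursors and released by proteases of the ADAM family. Signalling through EGFR controls proliferation in epithelial cells, and ERBB3 with NRG1 is known in melanocytes and in melanoma.

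Promoter windows are given first for AREG, EREG and HBEGF, the ligand genes with an entry that fell by most, and for BTC, a neighbour of AREG and EREG that was not called. The windows are the 250 bases before the annotated start in RefSeq on GRCh38.p14, read 5′ to 3′ on the strand of the gene, and capitals mark matches on either strand to the CRE motif TGACGTCA, to the AP-1 motif TGANTCA, to the TATA motif TATAAA or to the GC box GGGCGG. AREG lies at chr4:74444886-74445135 on the plus strand, EREG at chr4:74364895-74365144 on the plus strand, HBEGF at chr5:140346604-140346853 on the minus strand and BTC at chr4:74794524-74794773 on the minus strand. RefSeq entries were matched for 7 of the 9 members, and ERBB3 and NRG1 are named only.
AREG: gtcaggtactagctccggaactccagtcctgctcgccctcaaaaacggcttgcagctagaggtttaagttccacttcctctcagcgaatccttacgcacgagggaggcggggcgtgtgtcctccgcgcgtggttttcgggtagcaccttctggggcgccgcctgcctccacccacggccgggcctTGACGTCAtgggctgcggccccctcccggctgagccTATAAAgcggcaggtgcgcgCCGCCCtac
EREG: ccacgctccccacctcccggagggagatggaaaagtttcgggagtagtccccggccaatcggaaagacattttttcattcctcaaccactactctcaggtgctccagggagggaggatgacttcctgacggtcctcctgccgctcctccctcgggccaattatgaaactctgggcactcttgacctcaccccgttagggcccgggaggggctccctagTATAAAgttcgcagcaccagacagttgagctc
HBEGF: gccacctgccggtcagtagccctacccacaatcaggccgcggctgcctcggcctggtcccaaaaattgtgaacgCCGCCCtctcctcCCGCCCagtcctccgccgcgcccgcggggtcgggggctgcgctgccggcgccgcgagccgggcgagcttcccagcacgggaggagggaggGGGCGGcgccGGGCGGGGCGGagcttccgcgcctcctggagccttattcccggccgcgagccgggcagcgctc
BTC: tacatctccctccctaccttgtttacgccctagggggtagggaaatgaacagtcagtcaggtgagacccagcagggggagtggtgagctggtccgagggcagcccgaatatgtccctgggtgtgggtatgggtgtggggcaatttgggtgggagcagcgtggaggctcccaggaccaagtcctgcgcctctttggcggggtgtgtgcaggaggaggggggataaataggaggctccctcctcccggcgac
The AREG window holds 1 CRE motif that starts 65 bases before the start of the gene, 1 TATA motif at 29 bases and 1 GC box at 9 bases, and the EREG window holds 1 TATA motif at 32 bases. The HBEGF window holds 5 GC boxes, of which a pair overlap by 1 base, and the BTC window holds none of the 4 motifs. Among 35116 windows of the same length, 1.65% hold the CRE motif, 6.57% the AP-1 motif, 10.7% the TATA motif and 42.6% the GC box. No motif is held by all of AREG, EREG and HBEGF. GC content was 65.2% for AREG, 58.0% for EREG, 76.4% for HBEGF and 62.0% for BTC, against a median of 58.0% over all windows. A match is a description of letters and not a bound site.

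In VprBP sh, 5 of the 6 ligand genes fell and 0 of the 3 receptor genes were called lower. Of the 9 members, 5 fell, 1 rose and 3 were not called, where a call needs an adjusted p under 0.05 and a fold change over 2 in edgeR. All 5 that fell are ligands (AREG, EREG, HBEGF, TGFA and NRG1), and the 1 that rose is a receptor (ERBB3). Over all genes tested, 22.0% fell, 24.5% rose and 46.4% were called in either direction, so a call as such was common here. The median log2 fold change was -5.79 over the 6 ligands and 0.16 over the 3 receptors, beside 0.08 over all genes. A log2 fold change under -5, a limit chosen after the values were seen, was found in 6.99% of all genes and in 4 of 6 ligands. Normalized counts of the groups did not overlap for 8 of the 9 members, beside 79.5% of all genes tested. As the samples are bulk RNA, fewer cells of a kind and less RNA per cell cannot be told apart.

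**Figure D1:**
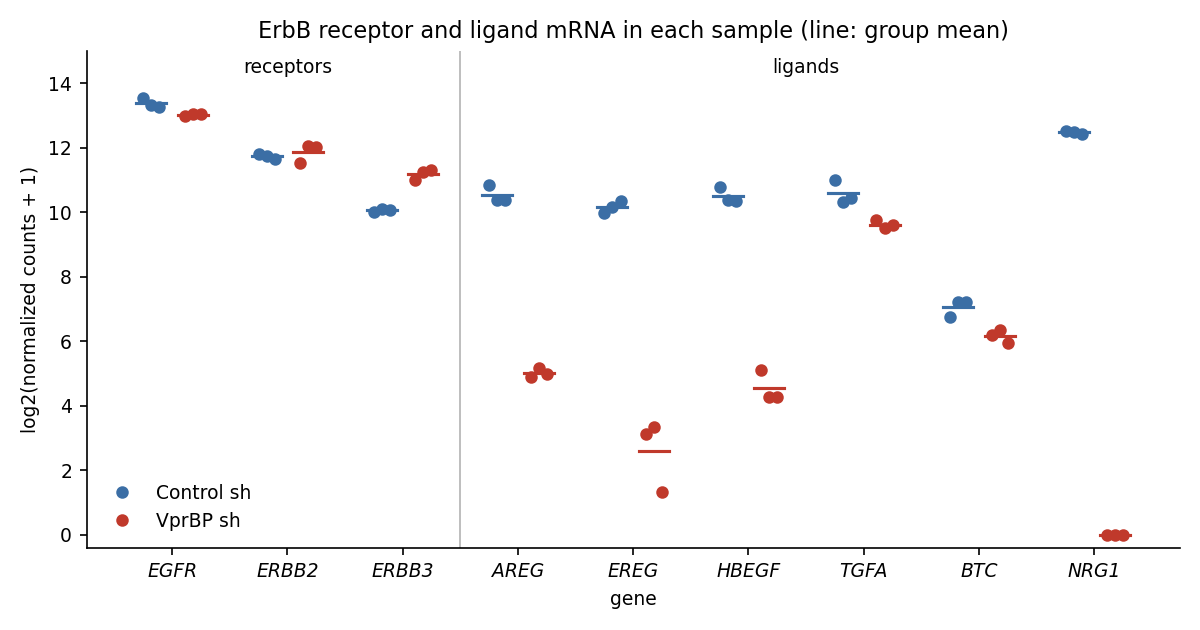
Log2(normalized counts + 1) of the 9 members in each sample, with 3 Control sh samples (blue) and 3 VprBP sh samples (red) per gene as points in the order of their replicate numbers and lines at the group means. AREG, EREG, HBEGF and NRG1 leave a wide gap between the groups, while the points of ERBB2 overlap.

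EGFR (ENSG00000146648.20), the receptor for most of these ligands, spans bases 55019017 to 55211628 on the plus strand of chromosome 7 (hg38). It gave 10463, 9474 and 10430 counts in Control sh replicates 1, 2 and 3, against 7310, 8110 and 11104 in VprBP sh. VprBP sh replicate 3, the deepest library, holds the highest raw count, and the groups separate only after scaling, at 10664 ± 1180 and 8283 ± 181 normalized counts (SD, n = 3 each). The log2 fold change was -0.36 (SE 0.09, 95% interval -0.57 to -0.16, adjusted p = 0.00516 in edgeR), short of 2-fold and not called. With scaling by library size alone the adjusted p was 0.143 in edgeR. EGFR-AS1 overlaps exons of EGFR on the opposite strand, and since the sources do not state whether counting used strand, reads of the pair may not be told apart.

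ERBB2 (ENSG00000141736.14), the partner receptor, spans bases 39687914 to 39730426 on the plus strand of chromosome 17. Its counts were 3122, 3145 and 3438 in the control libraries, against 2680, 4147 and 5471 in the VprBP sh libraries, so that the VprBP sh samples lie on both sides of the control samples. The groups overlapped at 3398 ± 178 and 3793 ± 722 normalized counts (SD, n = 3 each). The log2 fold change of 0.16 (SE 0.13, 95% interval -0.14 to 0.46) was not called (adjusted p = 0.294 in edgeR), and the exact two-sided permutation test over the 6 samples gave p = 0.4. Without VprBP sh replicate 1 it was 0.31 (adjusted p = 0.00319 in edgeR), still far from 2-fold. PGAP3 and MIEN1 overlap exons of ERBB2 on the opposite strand.

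ERBB3 (ENSG00000065361.17), the receptor that couples best to PI3-kinase, spans bases 56076799 to 56103505 on the plus strand of chromosome 12. It had 897, 1018 and 1132 counts in the control libraries, against 1839, 2335 and 3367 in the VprBP sh libraries, and each VprBP sh sample exceeded each control sample. ERBB3 rose from 1062 ± 33 to 2330 ± 269 normalized counts (SD, n = 3 each), a 2.19-fold change with a log2 fold change of 1.13 (SE 0.10, 95% interval 0.91 to 1.36, adjusted p = 4.76e-06 in edgeR). A test against a 2-fold change in edgeR, rather than against no change, gave an adjusted p of 0.0856, in a test that called 37.4% of all genes. A protein-coding gene of the same strand, ENSG00000257411, overlaps ERBB3, and reads of the overlap may be shared.

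AREG (ENSG00000109321.11) encodes amphiregulin, a ligand of EGFR that is released by shedding, and spans bases 74445136 to 74455005 on the plus strand of chromosome 4. Its counts were 1603, 1240 and 1401 in the control libraries, against 26, 34 and 40 in the VprBP sh libraries. No VprBP sh sample came near the control samples, and the mean fell from 1496 ± 297 to 31.4 ± 3.24 normalized counts (SD, n = 3 each), a 47.7-fold lower value. The log2 fold change was -5.57 (SE 0.19, 95% interval -6.00 to -5.14, adjusted p = 9.54e-09 in edgeR).

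TGFA (ENSG00000163235.16) encodes transforming growth factor alpha, the other ligand in this set that binds EGFR alone, and is transcribed from the minus strand of chromosome 2, bases 70447284 to 70554193. It had 1777, 1177 and 1491 counts in the control libraries, against 774, 702 and 1017 in the VprBP sh libraries, with every VprBP sh sample lower. The means were 1568 ± 413 and 783 ± 67.4 normalized counts (SD, n = 3 each). At 2.00-fold, with a log2 fold change of -1.001 (SE 0.17, 95% interval -1.38 to -0.62, adjusted p = 0.000418 in edgeR), TGFA fell but sits at the limit of the fold criterion, and the call was kept in 7 of 15 alternatives. Without Control sh replicate 1, its highest sample, the log2 fold change was -0.77 and the call was lost, as it was without VprBP sh replicate 2 (-0.95) or replicate 3 (-0.99).

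EREG (ENSG00000124882.4) encodes epiregulin, which binds EGFR and ERBB4, and starts at -80.0 kb relative to AREG on the same strand, covering bases 74365145 to 74388749 of chromosome 4. Counts were 880, 1051 and 1377 in the control libraries, against 7, 9 and 2 in the VprBP sh libraries, where VprBP sh replicate 3, the deepest library, was the lowest. EREG fell from 1144 ± 142 to 6.17 ± 4.10 normalized counts (SD, n = 3 each), with a log2 fold change of -7.62 (SE 0.30, 95% interval -8.29 to -6.96, adjusted p = 1.99e-08 in edgeR). With counts of 2 to 9 the size of this change is less certain than its direction, and it ran from -8.09 to -7.05 when 1 sample was left out.

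HBEGF (ENSG00000113070.8) encodes heparin-binding EGF-like growth factor, which also binds EGFR and ERBB4, and covers bases 140332843 to 140346603 of chromosome 5, on the minus strand. Its counts were 1529, 1241 and 1392 in the control libraries, against 30, 18 and 24 in the VprBP sh libraries, a gap with no overlap. HBEGF fell 62.9-fold, from 1465 ± 251 to 23.3 ± 8.54 normalized counts (SD, n = 3 each), and its log2 fold change was -6.00 (SE 0.23, 95% interval -6.51 to -5.49, adjusted p = 1.69e-08 in edgeR).

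BTC (ENSG00000174808.12) encodes betacellulin, a further ligand of EGFR and ERBB4, and covers bases 74744759 to 74794523 of chromosome 4, also on the minus strand. It was the least abundant of the member ligands in Control sh, with 92, 136 and 157 counts there, against 65, 78 and 80 in VprBP sh. The groups did not overlap at 133 ± 23.8 and 70.9 ± 9.80 normalized counts (SD, n = 3 each). The log2 fold change of -0.92 (SE 0.21, 95% interval -1.38 to -0.45, adjusted p = 0.00267 in edgeR) did not reach 2-fold, although BTC was called without Control sh replicate 1 (-1.06) or VprBP sh replicate 2 (-1.02) and with TMM factors (-1.01) or DESeq2 (-1.04).

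NRG1 (ENSG00000157168.20) encodes neuregulin 1, the ligand of ERBB3 and ERBB4, and spans bases 31639222 to 32855666 on the plus strand of chromosome 8. It gave 5124, 5340 and 5825 counts in the control libraries, against 0 in each VprBP sh sample. From a mean of 5698 ± 211 normalized counts (SD, n = 3) it became at least 1970-fold lower, when VprBP sh is set at a floor of 3 counts per library, which covers counting error only (adjusted p = 2.11e-09 in edgeR). NRG1 has 35 transcripts in GENCODE 44, and the table holds 1 value per gene, so these were not separated. ENSG00000286131 overlaps exons of NRG1 on the same strand. ERBB3 and its ligand NRG1 thus moved in opposite directions.

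**Figure D2:**
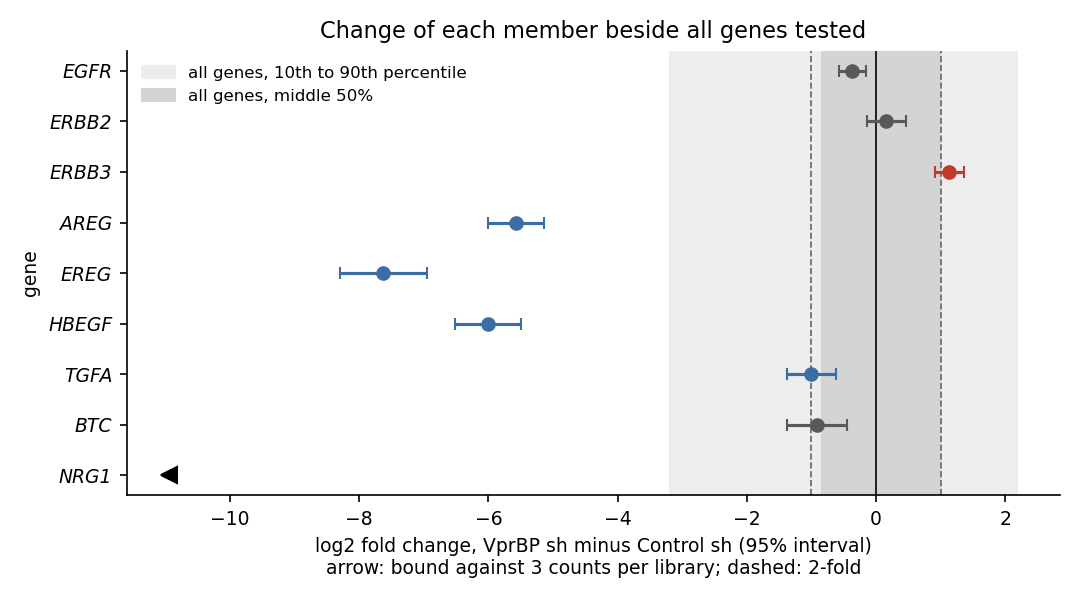
Log2 fold change of VprBP sh against Control sh for each member from edgeR (points, red called higher, blue called lower, grey not called, bars are 95% intervals), with dashed lines at a 2-fold change and bands for the middle 50% and for the 10th to 90th percentile of all genes tested. NRG1 is an arrow at its bound, ERBB3 is the 1 member beyond the line on the right, and TGFA lies on the line on the left.

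For each of the 8 members other than ERBB2, the exact two-sided permutation test over the 6 samples returned p = 0.1, which is the lowest value possible with 3 and 3 samples. The sign of every member's log2 fold change was the same in all alternatives in which it could be computed, 14 for EREG and NRG1 and 15 for each of the others. Scaling by library size alone moved the median of all genes from 0.08 to 0.29 on the log2 scale.

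Levels were compared between members on the scale of normalized counts per kilobase of exons, where the order of the members changed between the groups. In Control sh the highest level was that of AREG at 911 ± 181, followed by EGFR at 669 ± 74.0 and HBEGF at 490 ± 83.8 (SD, n = 3 each). ERBB2 at 329 ± 17.3, TGFA at 319 ± 84.0 and NRG1 at 267 ± 9.85 came next, and neither ERBB2 and TGFA nor TGFA and NRG1 were separated by their samples. EREG at 200 ± 24.8, ERBB3 at 90.7 ± 2.83 and BTC at 50.2 ± 8.99 closed the order. In VprBP sh the receptors led, with EGFR at 520 ± 11.4, ERBB2 at 368 ± 70.0 and ERBB3 at 199 ± 22.9. The samples of ERBB3 overlapped those of TGFA, the leading ligand at 159 ± 13.7, and below them were BTC at 26.7 ± 3.69, AREG at 19.1 ± 1.97, HBEGF at 7.79 ± 2.86, EREG at 1.08 ± 0.72 and NRG1 at 0. With the longest transcript as the length, ERBB2 passed HBEGF and NRG1 passed TGFA in Control sh, and the order in VprBP sh was the same.

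Summed over the 6 ligands, the level per kilobase was 2613, 2039 and 2060 in Control sh and 231.0, 206.2 and 204.7 in VprBP sh. The ligand total was thus 10.5-fold lower, at 2237 ± 326 against 214 ± 14.8 (SD, n = 3 each, exact two-sided permutation p = 0.1, the smallest possible). The 3 receptors together had 1188, 1061 and 1018 in Control sh and 967.4, 1142 and 1149 in VprBP sh, totals that overlap. Their means were 1089 ± 88.7 and 1086 ± 103 (SD, n = 3 each, exact two-sided permutation p = 1), a p that does not show that the totals are equal.

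Within these totals the make-up of both sets differed. EGFR was 61.3% ± 1.77 of the receptor total in Control sh and 48.1% ± 3.74 in VprBP sh, and ERBB3 was 8.38% ± 0.85 and 18.3% ± 0.60 (SD, n = 3 each). The share of ERBB2 was 30.3% ± 0.93 and 33.6% ± 3.48, and the groups overlapped (exact two-sided permutation p = 0.3), and its difference turned from 3.34 to -5.24 percentage points when the genomic span was taken as length. The ratio of EGFR to ERBB3 per kilobase was 8.57, 6.84 and 6.77 in the control samples and 2.92, 2.55 and 2.42 in the VprBP sh samples. Of the ligand total, AREG was 40.5% ± 2.08 in Control sh and 8.98% ± 1.38 in VprBP sh, while TGFA was 14.1% ± 1.64 and 74.4% ± 2.84. HBEGF was 21.9% ± 0.62 and 3.59% ± 1.05, and NRG1 was 12.0% ± 1.37 and 0%. EREG was 9.15% ± 2.16 and 0.50% ± 0.34, and BTC was 2.31% ± 0.68 and 12.5% ± 1.88. TGFA therefore made up most of the ligand RNA in VprBP sh although its own count was lower there. Shares were tested for all 9 members, and the exact two-sided permutation test gave p = 0.1, the smallest possible, for each member except ERBB2, or 0.113 after adjustment over the 9 tests.

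**Figure D3:**
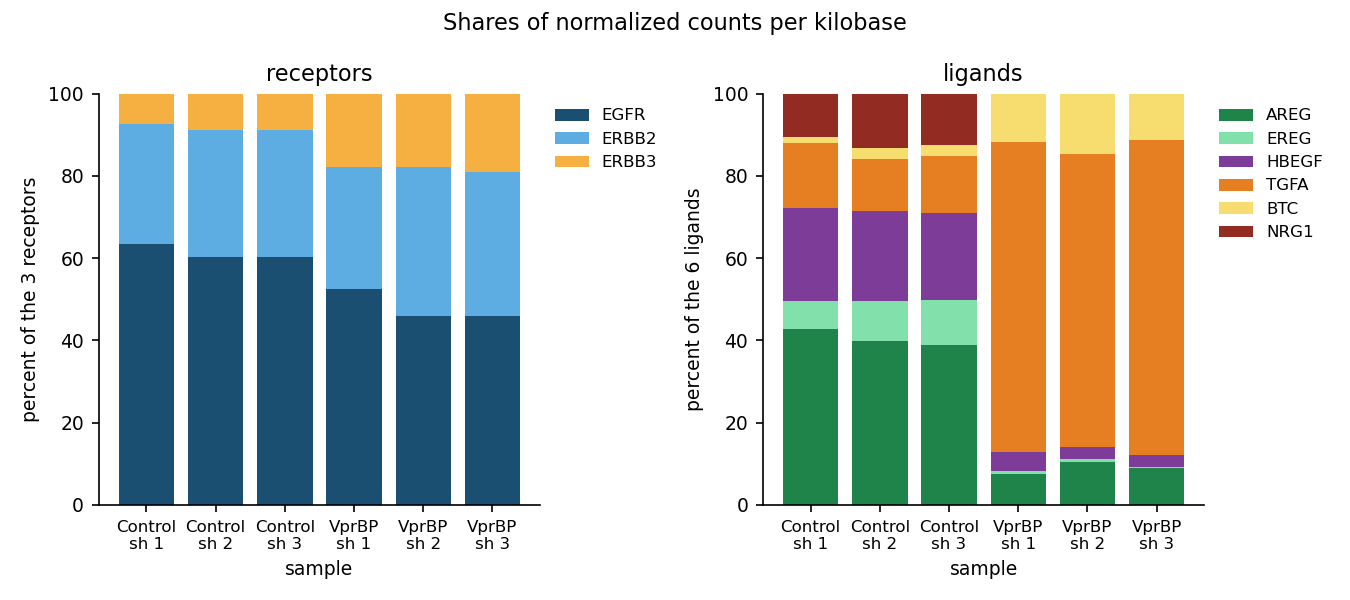
Share of each receptor in the summed receptor level and of each ligand in the summed ligand level (percent, normalized counts per kilobase of exons) in the 6 samples. AREG and HBEGF hold most of the ligand total in Control sh, and TGFA holds 74.4% on average in VprBP sh.

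AREG, EREG, EPGN and BTC lie in 1 stretch of chromosome 4 beside genes of CXC chemokines. Within 1 Mb of the AREG start, 15 genes have a row and 14 were tested, of which 11 fell, 1 rose and 2 were not called, beside 22.0% of all genes that fell. These include the members AREG, EREG and BTC, around which the window was set, and of the 11 other genes tested 9 fell, 1 rose and 1 was not called. EPGN, MTHFD2L and the chemokine genes are named here after their values were seen. EPGN, which encodes the ligand epigen and starts at -136.7 kb relative to AREG, had 10, 35 and 41 counts in the control libraries, against 6, 10 and 13 in the VprBP sh libraries. Several chemokine genes fell as well. CXCL8, the gene of a neutrophil chemokine, had 1680, 682 and 730 counts in Control sh against 21, 1 and 3 in the VprBP sh libraries, and CXCL6 and CXCL5 had 0 counts in each VprBP sh sample. MTHFD2L, a mitochondrial folate enzyme gene that lies between the chemokine genes and EPGN, rose (log2 fold change 1.84), so the stretch did not move as a whole. BTC, which starts 349.4 kb after AREG, and CXCL2 (log2 fold change -1.10, adjusted p = 0.149 in edgeR) were the 2 that were not called.

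**Figure D4:**
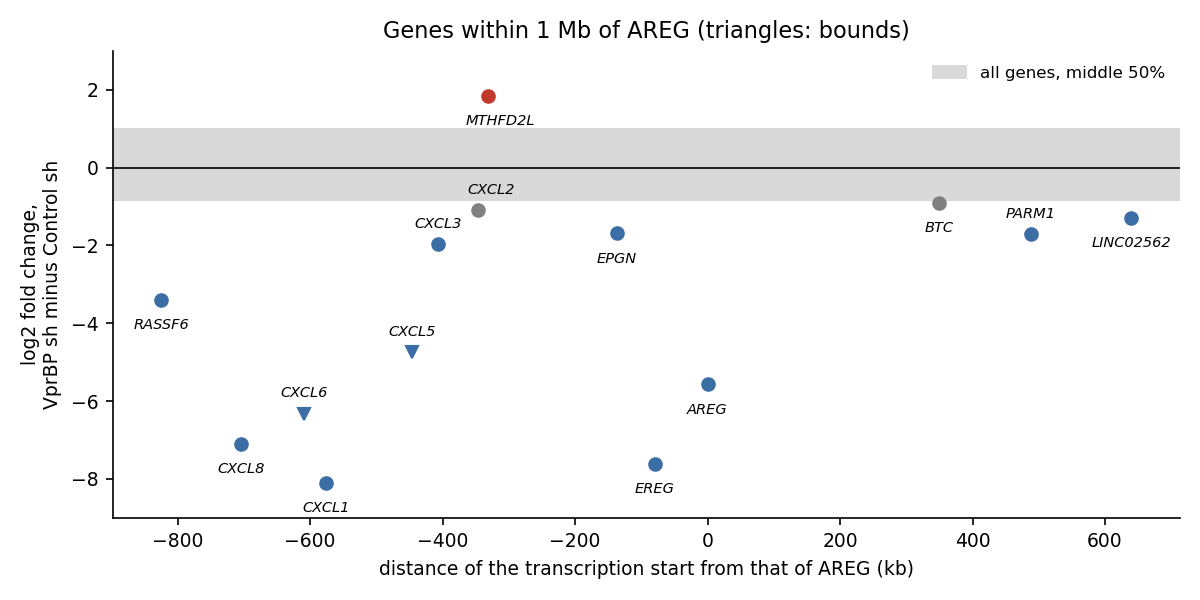
Log2 fold change (VprBP sh against Control sh) of the genes within 1 Mb of the AREG start, by distance from that start in kb (blue called lower, red called higher, grey not called, triangles are bounds, band is the middle 50% of all genes). Of the 14 genes tested, 11 fell and MTHFD2L rose.

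Other genes of the pathway were read from 7 lists. Over the lists, 87 genes were tested, of which 14 rose, 27 fell and 46 were not called, or 47.1% called beside 46.4% of all genes. Of all genes, 22.0% fell and 24.5% rose. The share called was below 46.4% for receptor inhibitors and degradation (31.25%), adaptors (43.75%), RAS and ERK (25%) and PI3K and AKT (33.33%). It was above 46.4% for ERK-responsive genes (53.33%), ligand shedding and processing (83.33%) and the other ligands (100%). Among 4 other EGF-family ligands tested, 1 rose and 3 fell, with a median log2 fold change of -3.29. EGF, the founding ligand of EGFR, had 2, 4 and 1 counts in the control libraries, against 142, 91 and 140 in the VprBP sh libraries, and was the 1 ligand gene that rose (log2 fold change 5.53, SE 0.44, adjusted p = 2.20e-06 in edgeR). NRG4, a ligand of ERBB4, had 82, 100 and 129 counts and 8, 2 and 1, a log2 fold change of -4.89. NRG2, named after its values were seen, had 91, 105 and 83 counts and 0, 1 and 2, and fell. NRG3 was not analysed here.

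Of 12 genes for ligand shedding and processing, 8 fell, 2 rose and 2 were not called, with a median of -1.75. ADAM17, the main sheddase of AREG, HBEGF and TGFA, had 2062 ± 105 and 1277 ± 40.6 normalized counts (SD, n = 3 each). Its log2 fold change of -0.69 (adjusted p = 3.17e-05 in edgeR) stayed short of 2-fold and was not called. ADAM19, a protease that can cleave neuregulin, fell from 403, 200 and 218 counts to 0 in each VprBP sh sample, at least 102-fold. PCSK5, a proprotein convertase, fell from 703, 516 and 604 counts to 2, 0 and 4, and ADAM12, another metalloprotease, became at least 41.7-fold lower. BACE1, a protease known to cut NRG1, rose from 587 ± 94.2 to 2333 ± 97.1 normalized counts (SD, n = 3 each), and PCSK6 rose with a log2 fold change of 1.17.

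Of 16 receptor inhibitors and degradation genes, 2 rose, 3 fell and 11 were not called, with a median of 0.17. LRIG1, a transmembrane protein that lowers ErbB receptor levels, had 472, 501 and 579 counts in the control libraries, against 4247, 6305 and 8406 in the VprBP sh libraries. It rose 10.8-fold, with a log2 fold change of 3.43 (SE 0.13, adjusted p = 2.07e-08 in edgeR), and its relative LRIG2 rose with a log2 fold change of 1.11. SH3KBP1, an adaptor in the endocytosis of EGFR, fell by 2.00 on the log2 scale, PTPN1, a tyrosine phosphatase, fell by 1.19, and CBLC, a ubiquitin ligase, fell by 1.14. CBL, the ubiquitin ligase best known for EGFR, stayed short of 2-fold at 0.94 (adjusted p = 3.36e-05 in edgeR) and was not called. With scaling by library size alone the calls of PTPN1 and CBLC were lost and CBL was called, as it also was without Control sh replicate 1 (1.07). LRIG2 was at 0.99 and not called with DESeq2.

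Of 16 genes tested in the adaptor list, 5 rose, 2 fell and 9 were not called, with a median of -0.05. GAB2 rose from 160 ± 11.3 to 1719 ± 118 normalized counts and GAB1 from 239 ± 42.9 to 669 ± 8.76 (SD, n = 3 each), both being docking proteins that bring PI3-kinase to receptors. NCK2 rose by 1.17 on the log2 scale. SHC1, the adaptor that links ErbB receptors to GRB2, fell by 1.84, and GRB7, an adaptor bound by ERBB2, fell by 1.30. PTPN11, the most abundant gene of this list without a call, had a log2 fold change of -0.69 (adjusted p = 4.52e-05 in edgeR), short of 2-fold.

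Of 12 genes of the RAS and ERK cascade, 0 rose, 3 fell and 9 were not called, with a median of -0.33. KSR1, a scaffold of the cascade, fell from 1278 ± 34.6 to 124 ± 11.2 normalized counts, and MAP2K1, a kinase of ERK, from 6071 ± 177 to 1855 ± 145 (SD, n = 3 each). HRAS fell by 1.17 on the log2 scale, a call that was lost with scaling by library size alone.

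Of 12 genes of the PI3K and AKT arm, 2 rose, 2 fell and 8 were not called, with a median of 0.22. PIK3R3, a regulatory subunit of PI3-kinase, had 65, 89 and 75 counts in the control libraries, against 6388, 7011 and 9425 in the VprBP sh libraries. It rose by 6.48 on the log2 scale (SE 0.13, adjusted p = 5.68e-10 in edgeR), and the subunit PIK3R1 rose by 1.37. Of the catalytic subunits, PIK3CD fell by 3.53 and PIK3CA by 1.29. PIK3CB, named after its values were seen, was not called at -0.39 (adjusted p = 0.00522 in edgeR), short of 2-fold. AKT1 was not called at 0.52 (adjusted p = 0.000225 in edgeR), likewise short of 2-fold.

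Of 15 ERK-responsive genes, 2 rose, 6 fell and 7 were not called, with a median of -0.77. FOSL1, an AP-1 subunit, had 3179, 3166 and 3471 counts in the control libraries, against 35, 10 and 16 in the VprBP sh libraries, and CCND1, which encodes cyclin D1, fell by 4.53 on the log2 scale. DUSP6, a phosphatase of ERK, had 1862, 2373 and 2639 counts and 207, 32 and 42. The immediate-early genes EGR1 and FOS went the other way. EGR1 had 1587, 1253 and 1350 counts in the control libraries, against 20661, 4943 and 6749 in the VprBP sh libraries, and FOS had 1057, 414 and 542 and 13372, 3104 and 4363. VprBP sh replicate 1 was the highest of its group in EGR1, FOS and DUSP6, although it is the shallowest library. Control sh replicate 1 was likewise the highest of its group in EGR1 and FOS, but not in DUSP6. Without VprBP sh replicate 1 the log2 fold change was 1.79 rather than 2.90 for EGR1 and 2.17 rather than 3.30 for FOS. For DUSP6 it was -6.20 rather than -4.67, and all 3 kept their calls. SPRY4 and MYC, named after their values were seen, were not called over all samples (-0.97 and -0.77) and were called lower without that library (-1.59 and -1.33), which made 8 genes of the list called lower. IER3 was not called at 0.62 (adjusted p = 0.0364 in edgeR), short of 2-fold.

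**Figure D5:**
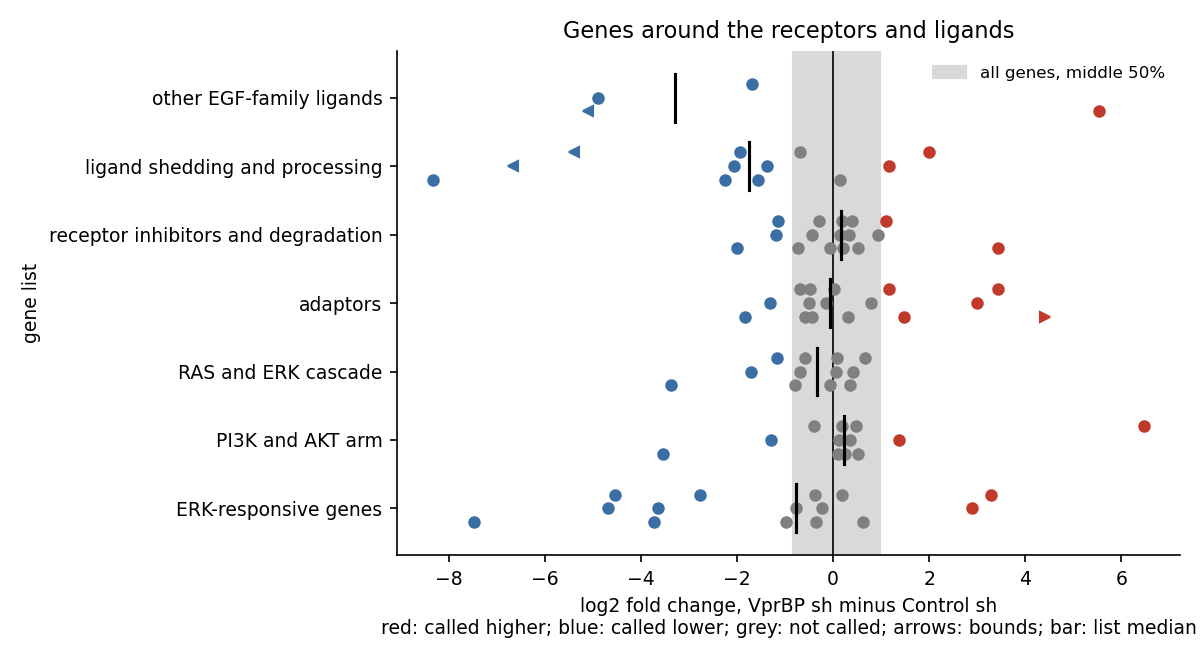
Log2 fold change (VprBP sh against Control sh) of each tested gene in the 7 pathway lists, with a bar at the median of each list (red called higher, blue called lower, grey not called, arrows are bounds, band is the middle 50% of all genes). The lists for other ligands and for shedding lie lowest, at medians of -3.29 and -1.75, and genes of each list lie on both sides of 0.

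The genes most like EGFR over the 6 samples, by the Euclidean distance between centred log2(normalized count + 1) profiles among 16755 genes, were SAMD4B (0.0472), ZBTB4 (0.0726) and ADAR (0.0776). Those most like ERBB3 were NDUFB7 (0.0958), DOLPP1 (0.105) and PGAP3 (0.110), the last of which overlaps ERBB2 on the opposite strand. A small distance describes these 6 samples only.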

How the data were processed

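The authors aligned reads to hg38 and used Partek Flow to obtain a value per gene. The deposited values are estimated counts, neither normalized nor pooled (59.4% of values are whole numbers, and each of the 21494 genes sums to at least 10). Values were rounded to whole counts, since the design had been written for counts. VprBP sh was compared with Control sh over all 6 samples by the quasi-likelihood test of edgeR 4.0.16 in R 4.3.3, with upper quartile factors (quantile 0.75), a filter on low counts (minimum 10), Benjamini-Hochberg adjustment over 16756 genes and no replicate block. Normalized counts are scaled by the same factors. Standard errors come from the F statistic. Gene starts and ends (hg38) were read from the deposited table, whose last base was set to match GENCODE 44, and exon lengths came from GENCODE 44. Promoters came from RefSeq.

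Permutation tests were exact and two-sided. The members and lists were chosen with earlier results of these data known. Named genes are all members, DCAF1, the markers and the 3 genes most like EGFR and ERBB3. Per list, they also include up to 3 genes called in each direction and the most abundant gene not called. The called genes named are those with the largest absolute log2 fold change among genes with a mean of at least 100 in the higher group. They are thus not typical of their list. Any other gene is said to be named after its values were seen. The values of 1 gene that this rule names are not reported here. Alternatives were TMM factors, library size alone, DESeq2 1.42.0, limma-voom (limma 3.58.1), no filter, a minimum of 10 counts in all samples, testing against a 2-fold change, a replicate block, leaving out each sample, other gene lengths and, chosen after seeing the data, the sum of replicates 2 and 3 of each group. On simulated counts for 16392 genes with 200 changed by 2 on the log2 scale, edgeR recovered 100% with 0 false calls. That is a far smaller part of the genes than the 46.4% called in the data. The simulation also used 1 dispersion for all genes and changed none of the least abundant ones. It therefore does not test the scaling between the groups or the calls of genes with few counts.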

Additional observations from a re-analysis of the deposited data

How the results depend on the processing

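Depth limits EREG and NRG1 in VprBP sh, which a minimum of 10 counts in all samples removes. With that minimum, 2 members were called lower, and 2694 genes rose and 1996 fell over all 13103 tested, since fewer genes entered. A test against a 2-fold change left 0 members called higher. The fold criterion decided TGFA, whose log2 fold change was -0.79 with library size alone, -0.97 with limma-voom and -0.99 with the stricter filter. Calls split 4899 up and 3248 down with library size alone, against 4097 and 3681. Leaving out 1 sample gave 4 to 5 members lower and 1 higher, though not always the same members. Without Control sh replicate 1 or VprBP sh replicate 2, BTC was called lower in place of TGFA. With replicates 2 and 3 of each group summed, chosen after seeing the data, 5 members were lower and 1 higher.

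Over all genes together, the replicate numbers showed no pairing of the samples. Deviations of samples with the same number correlated at -0.145, -0.0293 and -0.106 over 13303 genes. Such a correlation does not show that no single gene was paired. In normalized counts, replicate 1 was the highest of both groups in EGR1, FOS and IER3. With the number as a replicate block 7686 genes were called, 4 members lower and 1 higher, and TGFA was at -0.97 (adjusted p = 0.000712 in edgeR).

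Shares depend on the length used. With the genomic span as length, the difference in share (VprBP sh minus Control sh, in percentage points) was -5.24 for ERBB2, opposite in sign to 3.34 with exon length, and was 17.0 for ERBB3, -22.9 for AREG, -13.2 for EREG, -20.3 for HBEGF, 48.4 for TGFA and -1.44 for NRG1. With the longest transcript it was -17.0 for HBEGF and -15.5 for NRG1. These moves follow from the lengths alone.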

Other observations

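The genes beside ERBB2 on chromosome 17 were chosen after their values were seen. Within 100 kb of the ERBB2 start, and leaving out ERBB2 itself, 9 genes have a row and 6 were tested, of which 2 rose, 1 fell and 3 were not called, beside 46.4% called in either direction over all genes. PGAP3, a gene for remodelling of lipid anchors that overlaps ERBB2 on the opposite strand, had 214, 258 and 288 counts in the control libraries, against 482, 601 and 824 in the VprBP sh libraries, a log2 fold change of 1.16 (SE 0.12, adjusted p = 1.17e-05 in edgeR). GRB7, which lies beyond MIEN1 and encodes an adaptor, had 2210, 1703 and 2089 counts and 543, 930 and 1316. STARD3, a cholesterol transport gene upstream of ERBB2, was not called at 0.54 (adjusted p = 0.000773 in edgeR), short of 2-fold. MIEN1 was not called at -0.20 (adjusted p = 0.0626 in edgeR). PNMT, the enzyme that makes adrenaline, gave 1, 2 and 0 counts in the control libraries, against 29, 28 and 28 in the VprBP sh libraries.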
